A study of Mus musculus with 6 samples.

Results

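Genes of ribosome biogenesis and of RNA polymerase I were read in the RNA of CD4+ T cells taken with an isolation kit from the spleens of mice after haematopoietic stem cell transplantation. The members were chosen by gene symbol (the Nop, Utp, Rrp, Imp, Nol and Polr1 series, and Ncl, Npm1, Fbl, Dkc1, Gar1, Nhp2, Bop1, Pes1, Wdr12, Ebna1bp2 and Myc), which gave 52 of the 15686 genes in the table. In the allogeneic group (3 libraries) the labels name C57BL/6 as donor and Balb/c as host, and in the syngeneic group (3 libraries) Balb/c as both. Both groups therefore share the Balb/c host and the transplantation, and the labels used here state no age, sex, time after transplantation or clinical score. Whether each library of a group stands for its own mouse is not stated. The p-values below therefore reflect the scatter among these libraries alone, and it may be technical.

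Ribosomes are built mainly in the nucleolus. RNA polymerase I transcribes the precursor of the ribosomal RNAs, guided particles chemically modify it, and the small subunit processome and the large subunit assembly factors fold, cut and package it with ribosomal proteins. Resting T cells make few ribosomes, and activation raises Myc, a transcription factor that promotes many of these genes, before the cells grow and divide.

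Each value was a FPKM, which is corrected for library depth and for the merged length of all annotated exons of a gene. That length can exceed a single transcript, so levels of different genes compare only roughly, while groups compare at the same length. The values pointed to 14.8 to 16.96 M reads in each library, and members held from 57 reads (Utp14b) to 21440 reads (Ncl) in a library. Of 9 genes known to differ between the strains, 8 went against the labels and 1 (Gbp2b) went with them. The 8 included all 5 T cell receptor segments of the list, whose T cells Balb/c mice are known to delete. H2-Ea-ps, which C57BL/6 mice do not transcribe, was at 133 ± 3.02 FPKM (SD, n = 3) in them and at 21.1 ± 2.73 in the libraries labelled syngeneic. Ighg2c, the C57BL/6 form of an antibody gene, was at 16.3 ± 0.247 and 9605 ± 270 FPKM, the opposite of the labels, and every direction below is between libraries as labelled. The cell makeup also differed. The 5 T cell markers (Cd3d, Cd3e, Cd3g, Cd247, Cd4) gave sums of 211 to 221 FPKM where the label was allogeneic and of 460 to 490 where it was syngeneic, and all 5 were lower in the former. The 10 markers of granulocytes and their precursors summed to 4063 to 4243 against 1294 to 1438 FPKM, the 9 of macrophages and monocytes to 1174 to 1218 against 281 to 313, the 10 of red cell precursors to 400 to 416 against 12.2 to 14.8, and the 8 of stem and progenitor cells to 187 to 189 against 36.3 to 43.9. The markers of B and plasma cells were lower, at 506 to 526 against 824 to 850 FPKM (6 of 6 tested called lower), as were both of CD8 T cells, at 1.37 to 1.57 against 13.9 to 15.6. No measured marker was at 0 in every library. In these bulk samples fewer cells of a type and less RNA per cell cannot be told apart, and the part of these cells in the results below was not tested.

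The promoters of members are shown because most members differed together and Myc, a member itself, binds the hexamer CACGTG. This motif was searched alone, and as it reads the same on both strands, a match counts for both. RefSeq windows of 250 bases before to 50 after a start (build GRCm38.p6) matched 42 of the 52 members by symbol. The members without a window were Bop1, Fbl, Myc, Nol6, Nop53, Npm1, Rrp12, Utp11, Utp23 and Utp6. CACGTG lay in at least 1 window of 9 of the 42 (21.4%), against 8.1% of all 27025 genes with a window and 11.98% of the 8958 genes tested below that had one. Utp14b, 1 of the 9, was not tested, and among tested members with a window 8 held the motif and 33 did not. In the test described below all 8 with the motif were called higher (median log2 fold change 0.488). Of the 33 without it, Nol4l among them, 26 were (median 0.436), against 40.7% of all genes. Whether Myc had a part in these differences was not tested. Counted by window, 9 of 49 member windows (18.4%) held it, against 7.2% of all windows and 10.2% of the windows of tested genes. The windows printed are those of Nop2 (chr6:125131633-125131932, plus strand), Pes1 (chr11:3963725-3964024, plus), Utp18 (chr11:93885717-93886016, minus) and Utp20 (chr10:88826765-88827064, minus), which hold the motif in capitals, and Dkc1 (chrX:75095604-75095903, plus), the member with the largest fold difference, which holds none.
Nop2: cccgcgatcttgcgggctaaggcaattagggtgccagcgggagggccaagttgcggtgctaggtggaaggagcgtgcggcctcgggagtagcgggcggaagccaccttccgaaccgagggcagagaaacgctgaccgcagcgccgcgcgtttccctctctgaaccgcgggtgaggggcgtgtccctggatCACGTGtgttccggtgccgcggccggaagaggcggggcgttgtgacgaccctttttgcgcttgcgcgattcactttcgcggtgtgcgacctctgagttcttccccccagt
Pes1: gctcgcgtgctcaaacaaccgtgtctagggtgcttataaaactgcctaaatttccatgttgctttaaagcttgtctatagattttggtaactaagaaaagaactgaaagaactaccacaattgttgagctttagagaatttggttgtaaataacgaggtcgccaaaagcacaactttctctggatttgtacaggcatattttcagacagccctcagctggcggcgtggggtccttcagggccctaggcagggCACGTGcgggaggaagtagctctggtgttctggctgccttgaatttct
Utp18: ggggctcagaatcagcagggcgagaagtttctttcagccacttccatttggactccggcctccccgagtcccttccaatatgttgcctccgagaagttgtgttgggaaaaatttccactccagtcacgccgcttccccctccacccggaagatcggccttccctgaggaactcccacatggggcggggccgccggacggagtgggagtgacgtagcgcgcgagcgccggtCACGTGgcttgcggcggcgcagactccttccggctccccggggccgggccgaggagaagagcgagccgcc
Utp20: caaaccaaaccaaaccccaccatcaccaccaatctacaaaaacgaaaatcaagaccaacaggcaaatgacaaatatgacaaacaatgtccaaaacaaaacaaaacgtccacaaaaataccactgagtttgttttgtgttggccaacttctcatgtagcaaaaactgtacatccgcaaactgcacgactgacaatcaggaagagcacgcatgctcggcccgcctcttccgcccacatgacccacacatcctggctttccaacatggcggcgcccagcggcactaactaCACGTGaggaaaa
Dkc1: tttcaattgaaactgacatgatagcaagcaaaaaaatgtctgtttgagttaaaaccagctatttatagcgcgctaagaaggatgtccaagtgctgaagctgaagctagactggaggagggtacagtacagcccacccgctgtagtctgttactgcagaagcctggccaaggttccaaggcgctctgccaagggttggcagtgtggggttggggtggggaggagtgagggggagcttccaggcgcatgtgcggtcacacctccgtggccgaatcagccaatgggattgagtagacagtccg
Each runs 5′ to 3′ on the strand of its gene. The motif began at −60 from the start of Nop2 and at −20 from that of Utp18, where negative values lie upstream, and at 2 and 37 past the starts of Pes1 and Utp20. The remaining 5 members with a match were Imp4, Nol11, Rrp7a, Utp14b and Utp4.

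Most of these genes were higher in the libraries labelled allogeneic. The test was limma on log2(FPKM + 1) for the 13235 genes that reached 1 FPKM in 3 or more libraries, with Benjamini-Hochberg adjustment over all of them and a threshold of 0.05. Fold changes on this scale understate those of low genes. Of the 52 members 51 entered the test, of which 42 (82.4%) were called higher, 2 called lower and 7 not called, against a background of 40.7% of all genes called higher, 26.6% called lower and 67.4% called in either direction. The 2 lower members were Nop53 and Polr1d. The median log2 fold change of the members was 0.48 and that of all genes tested 0.09. At a log2 fold change of 0.5 or more, a limit chosen after the values were seen, 24 members (47.1%) were called higher, against 22.3% of all genes. In each of the 42 members called higher the lowest library labelled allogeneic lay above the highest labelled syngeneic, against a background of 43.4% of all genes with such a gap. The 7 members not called all had groups that overlapped. Together the members made up 1733 to 1780 FPKM (0.527 to 0.541% of the table's total) in libraries labelled allogeneic, compared with 1177 to 1213 FPKM (0.318 to 0.326%) in libraries labelled syngeneic. Replicates of a group lay close together, with a median coefficient of variation of 3.83% over members in the libraries labelled allogeneic, against 5.28% in those labelled syngeneic. Nol4l, which is named for the nucleolus but has other known roles, entered the test only through the libraries labelled allogeneic. It was at 1.48, 1.72 and 1.64 FPKM there and at 0.695, 0.861 and 0.668 in the others. Nol4l therefore had to differ and its call is no result, although it is counted among the 42 and the 24 above. Utp14b, which is known in mice as a retrogene copy of Utp14a, did not enter the test, at 0.781 to 1.07 against 0.44 to 0.562 FPKM.

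**Figure D1:**
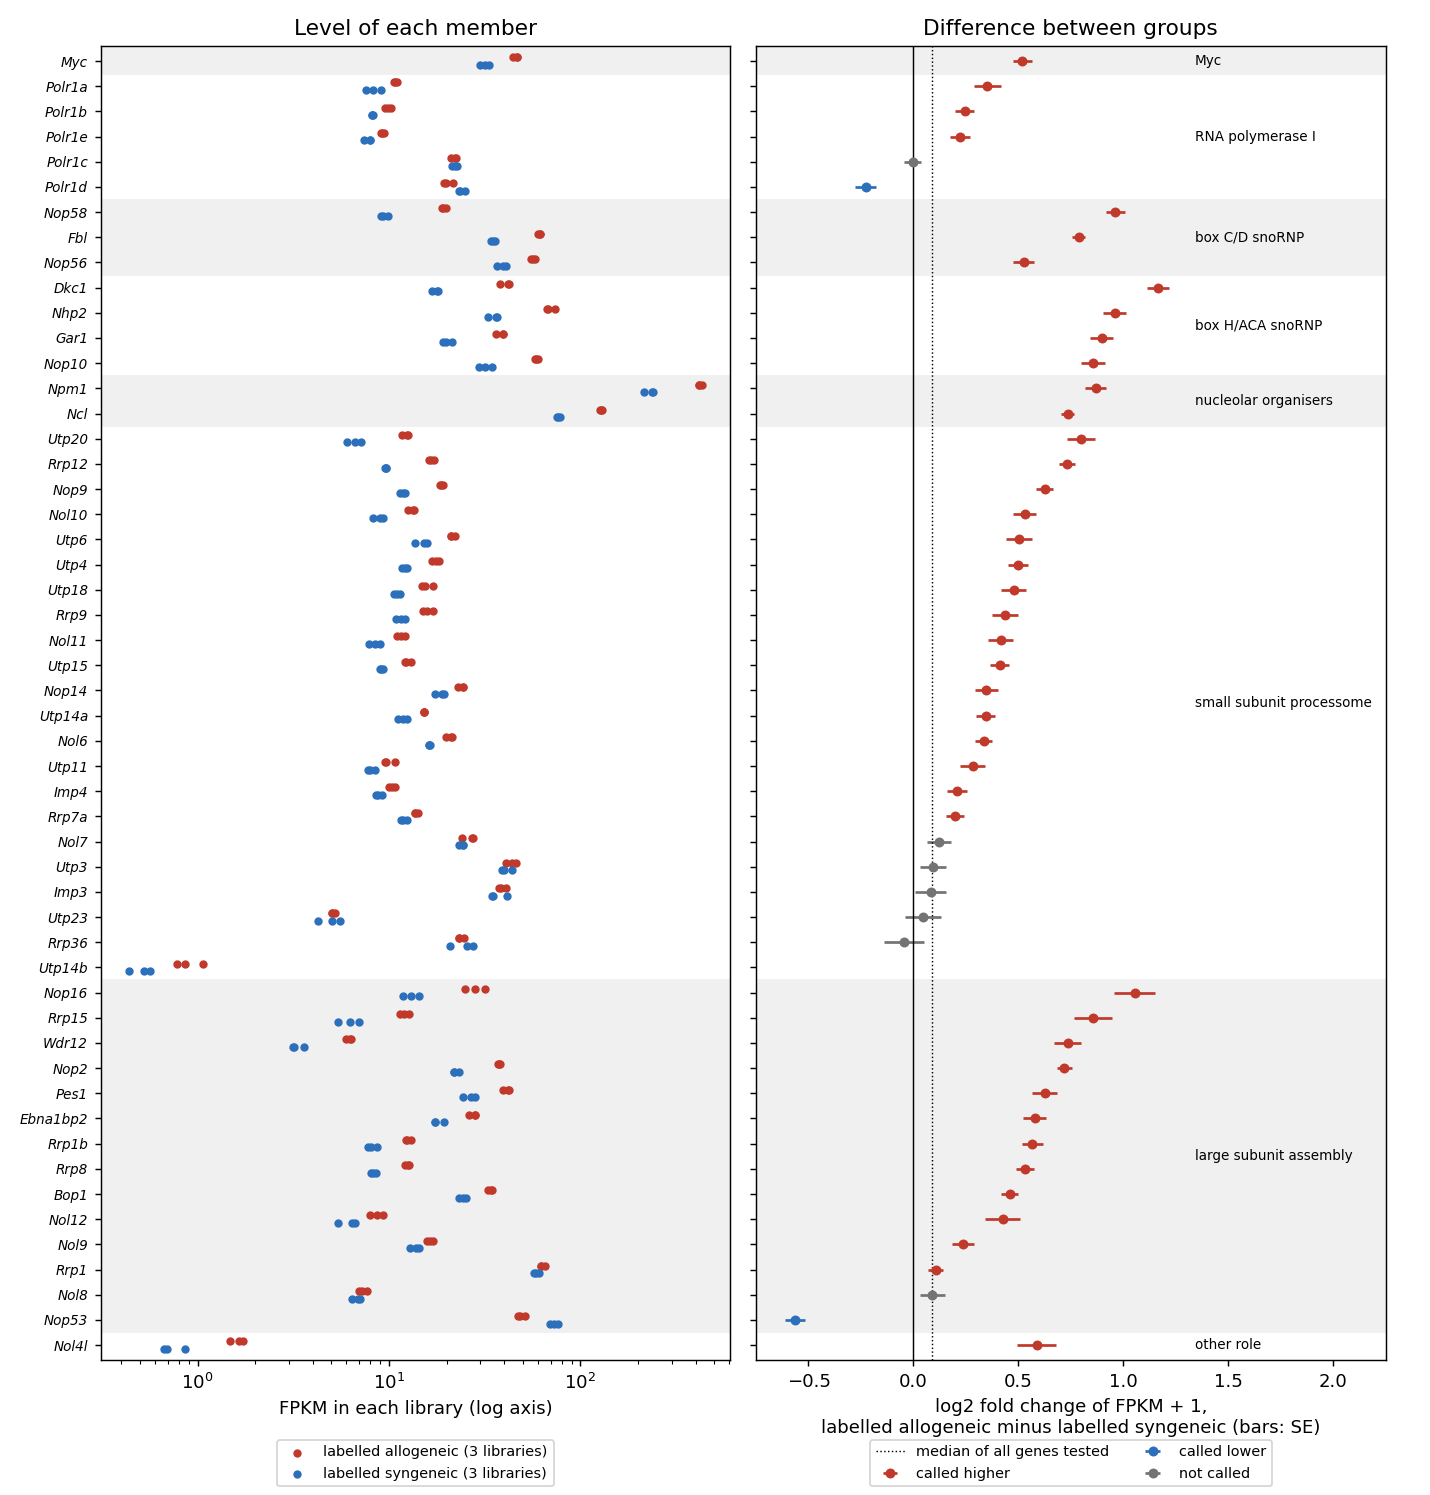
Left, the FPKM of each of the 52 members in each library (log axis, 3 points a group); right, the log2 fold change of the 51 tested members, labelled allogeneic minus labelled syngeneic, with its SE, by role. On the right 45 of the 51 points lie above the median of all genes (0.09). Nop53 and Polr1d, both called lower, lie below 0, as do Rrp36 and Polr1c, which were not called.

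Myc was at 44.4, 46.7 and 46.5 FPKM in the libraries labelled allogeneic and at 30.03, 31.8 and 33.4 FPKM in those labelled syngeneic. The groups did not overlap, and the log2 fold change was 0.52 (SE 0.046, n = 3 each, limma adjusted p = 7.78e-05), a 1.45-fold ratio of means. Of the 14 measured genes of the Myc network, which holds its partners and competitors, 3 were called higher, 4 lower and 7 not called (median −0.03), against 40.7% higher and 26.6% lower over all genes. Centred on the library median 8 were called lower, against 35.2% of all genes. Mycn, a relative of Myc used by progenitor cells, was at 2.57 ± 0.448 against 0.346 ± 0.08 FPKM , far below Myc in level. It entered the test only through the libraries labelled allogeneic, so it had to differ, and its place among the 3 called higher is no result. Max, the obligate partner through which Myc binds DNA, was at 39.5 ± 1.30 against 40.2 ± 2.88 FPKM and not called. Mxd1, which competes with Myc for Max, was lower at 9.53 ± 0.516 against 17.5 ± 0.504 FPKM (−0.81), and Mlxip, a glucose-responsive factor of the same wider family, was lower by more (−1.45). Mycbp, which binds Myc, was higher (0.55). Scaled to the CD3 chains, a scaling described further on, Mxd1 turned to 0.20, Mlxip stayed lower (−0.39), the median of the list moved to 1.02 and 13 of its 14 genes were called higher, where the median of all genes was also 1.02 and 86.2% of them were called higher.

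The 5 genes of RNA polymerase I with a Polr1 symbol differed less than most members, and they did not move together. Polr1a, the largest catalytic subunit, was at 10.7, 10.8 and 11.1 FPKM in the libraries labelled allogeneic and at 7.57, 8.28 and 9.05 FPKM in those labelled syngeneic. Its groups did not overlap (log2 fold change 0.35, SE 0.065, limma adjusted p = 0.00266). Polr1b, the second catalytic subunit, was at 10.3, 9.94 and 9.48 against 8.20, 8.12 and 8.24 FPKM, higher by 0.25 on the log2 scale (limma adjusted p = 0.00262). Polr1e, a subunit of the dimer that aids initiation and elongation, was higher by 0.22, a call lost under 3 of the 5 other scalings. Polr1c and Polr1d are the pair that RNA polymerase I shares with RNA polymerase III. Polr1c was at 21.2, 22.3 and 22.5 against 22.7, 21.3 and 22.1 FPKM and was not called, although centring on the library median made it lower (−0.13) and scaling to the CD3 chains higher (1.04). Polr1d was at 19.9, 21.6 and 19.3 FPKM in the libraries labelled allogeneic and at 23.5, 24.9 and 23.3 FPKM in those labelled syngeneic. It was lower without overlap for FPKM as deposited (−0.23, SE 0.052, limma adjusted p = 0.0071) but turned to 0.816 when scaled to the CD3 chains. The ratio of Polr1d to Polr1a was therefore 1.744 to 2.002 in the libraries labelled allogeneic, against 2.57 to 3.11 in those labelled syngeneic, a ratio that dividing a library by a single factor does not change and that was chosen after the values were seen.

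The factors that work with the polymerase rose in part. Of 22 listed initiation factors, cofactors and further subunits 14 were called higher, 1 lower and 7 not called (median 0.30), against 40.7% higher and 26.6% lower over all genes. Centred on the library median 11 were higher and 4 lower, against 32.4% and 35.2% of all genes. Scaled to the CD3 chains 22 were higher and 0 lower, against 86.2% and 4.13% of all genes. Cd3eap, a polymerase I subunit named in the table by an older symbol and not itself a CD3 chain, was at 10.6 ± 0.612 against 5.55 ± 0.313 FPKM (0.83). Twistnb, another subunit under its older symbol, was higher by 0.50, while Znrd1 was at 29.4 ± 1.14 against 29.2 ± 1.84 FPKM. Mybbp1a (0.90) and Nolc1 (0.88), nucleolar proteins tied to rRNA transcription and snoRNP handling, had the largest fold changes of the list on the log2(FPKM + 1) scale. By ratio of means Cd3eap came first (1.916, against 1.882 for Mybbp1a and 1.876 for Nolc1). Ubtf, which holds the ribosomal genes in an open state, was higher by only 0.18 and Rrn3, which recruits the polymerase to the promoter, by 0.17. Taf1b, a subunit of the promoter selectivity factor, was the single gene called lower (−0.41), and its partners Taf1a, Taf1c and Taf1d were not called. Set beside it, 6 of 7 specific subunits of RNA polymerase II were called higher and 1 lower (median 0.31), and 6 of 11 of RNA polymerase III higher and 3 lower (median 0.30), shares of the latter that lie near those over all genes. With a filter at 5 FPKM the median of the RNA polymerase III list was −0.05. Polr2d had the largest rise of the RNA polymerase II subunits (0.47) and Polr2a was lower (−0.18). Of these subunits 3 were called higher without replicate 2 labelled allogeneic. When centred on the library median 2 were, against 32.4% of all genes. Polr3gl, of RNA polymerase III, was lower (−1.09).

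The proteins of the particles that modify rRNA were higher throughout, with larger log2 fold changes than any Polr1 gene. Box C/D particles add methyl groups to ribose and hold Fbl, the methyltransferase, with Nop56, Nop58 and Snu13. Fbl was at 60.1, 61.3 and 61.3 FPKM in the libraries labelled allogeneic and at 34.01, 35.8 and 34.8 FPKM in those labelled syngeneic (log2 fold change 0.79, SE 0.032, limma adjusted p = 2.54e-06). Nop58 was at 18.9, 19.9 and 19.1 against 9.89, 9.30 and 9.07 FPKM, a 2.05-fold ratio of means (0.96, SE 0.046, limma adjusted p = 4.79e-06). Nop56, its paired scaffold, was at 55.04, 56.7 and 58.0 against 39.6, 40.9 and 36.6 FPKM, with a smaller ratio of 1.45 (0.52, SE 0.048, limma adjusted p = 8.69e-05). None of these 3 genes had groups that overlapped, against 43.4% of all genes that were higher without overlap, but their fold changes were unequal. The ratio of Nop58 to Nop56, which like the other ratios given here was chosen after the values were seen, was 0.329 to 0.351 in the libraries labelled allogeneic, against 0.227 to 0.250 in those labelled syngeneic. Snu13, read from a comparison list, was at 45.01 ± 1.53 against 23.7 ± 2.39 FPKM (0.90).

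Box H/ACA particles turn uridine into pseudouridine and also take part in telomerase. All 4 of their proteins were called higher, with log2 fold changes of 0.86 to 1.17, against 40.7% of all genes called higher. Dkc1, the pseudouridine synthase, was at 37.9, 41.7 and 42.6 FPKM in the libraries labelled allogeneic and at 17.9, 17.9 and 16.9 FPKM in those labelled syngeneic. This 2.32-fold ratio was the largest among tested members (1.17, SE 0.053, limma adjusted p = 3.97e-06). Nhp2, which binds the guide RNA, was at 67.8, 73.8 and 67.4 against 36.7, 33.04 and 36.3 FPKM (0.96, limma adjusted p = 1.11e-05). Gar1, which helps the substrate leave, was at 39.3, 39.6 and 36.1 against 21.3, 19.8 and 19.1 FPKM (0.90, limma adjusted p = 1.40e-05). Nop10, a small scaffold bound to Dkc1, was at 57.7, 59.99 and 58.4 against 31.8, 34.5 and 29.7 FPKM (0.86, limma adjusted p = 1.81e-05). None of the 4 had groups that overlapped, and 43.4% of all genes were likewise higher without overlap. The ratio of Dkc1 to Gar1 in FPKM was 0.841 to 0.904 in the libraries labelled syngeneic and 0.965 to 1.18 in those labelled allogeneic. Which of them stands higher depends on their merged exon lengths (4121 and 1714 bases).

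Npm1 and Ncl, the abundant proteins that organise the nucleolus and chaperone ribosomal particles, were the members with the highest levels. Npm1 was at 416, 430.4 and 419 FPKM in the libraries labelled allogeneic and at 239, 238 and 215 FPKM in those labelled syngeneic (0.87, SE 0.050, limma adjusted p = 1.10e-05). Its value is uncertain, since 12 annotated pseudogenes matched its transcript over 300 bases or more at 85% identity or more. Ncl was at 126, 130.1 and 129 against 75.7, 78.1 and 76.2 FPKM (0.74, SE 0.030, limma adjusted p = 2.49e-06). Both genes were higher without overlap, as were 43.4% of all genes. In FPKM Npm1 stood 3.26 to 3.31 times as high as Ncl in the libraries labelled allogeneic and 2.82 to 3.16 times in the others. This order rests on merged exon lengths of 2665 bases for Npm1 and 10188 for Ncl. By reads in a library the ranges were 8496 to 18552 for Npm1 and 11526 to 21440 for Ncl. Over all members 19 had at least 1 such pseudogene copy, among them Nop56 with 5 and Fbl with 4. Of the 33 tested members with none, Nol4l among them, 29 were called higher, against 40.7% of all genes.

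**Figure D2:**
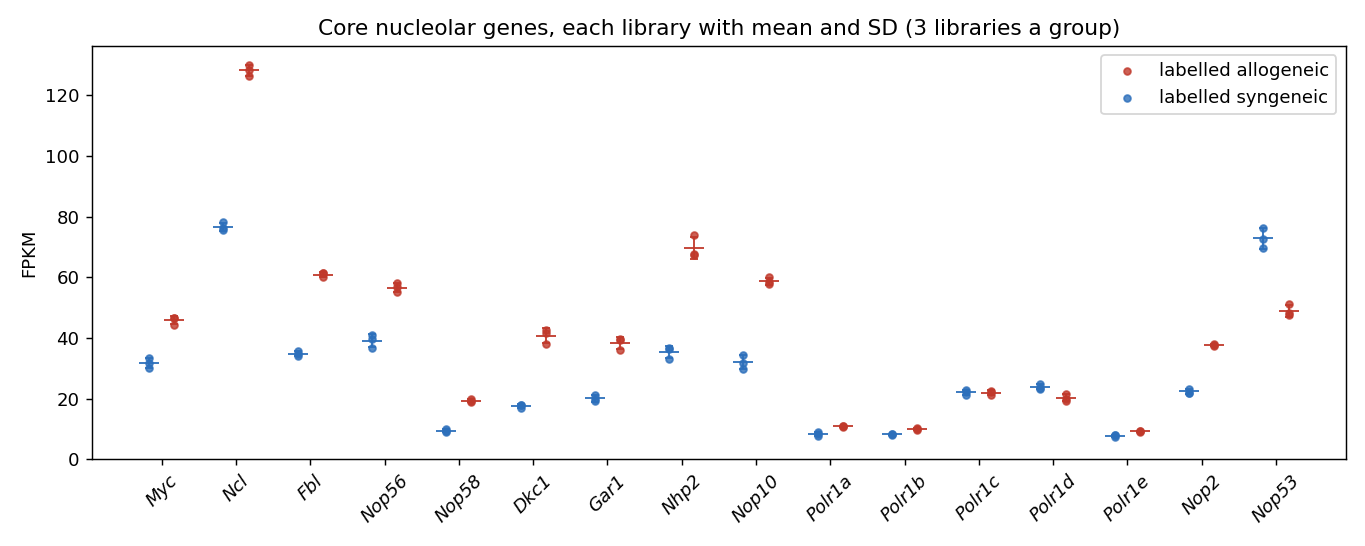
FPKM of 16 core genes in each library, with the mean and SD of the 3 libraries of each group. The red points (labelled allogeneic) lie above the blue for Myc, Ncl and every snoRNP protein, slightly above it for Polr1a, Polr1b and Polr1e, and below it for Polr1d and Nop53.

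Of the 22 small subunit processome genes 21 were tested, of which 16 were called higher, 0 lower and 5 not called (median 0.35), against 40.7% higher and 26.6% lower over all genes. At an unadjusted p under 0.05 limma gave 0 lower, and voom on recovered reads gave 0 as well. Utp20, a large scaffold of the processome, was at 12.4, 12.6 and 11.7 FPKM in the libraries labelled allogeneic and at 6.02, 6.66 and 7.18 FPKM in those labelled syngeneic. This was the largest rise among them (0.80, SE 0.066, limma adjusted p = 5.45e-05). Rrp12, known in yeast for aiding export of the subunits, followed at 0.73 and Nop9 at 0.63, although 29.9% of the exon sequence of Nop9 overlaps Cideb on the other strand. Nol10 (0.53), Utp6 (0.50), Utp4 (0.498), Utp18 (0.48), Rrp9 (0.44), Nol11 (0.42) and Utp15 (0.41) were also higher. Rrp9 is a protein of the U3 particle, which pairs with the precursor RNA, and Utp4, Nol11 and Utp15 belong to the complex that links the processome to transcription. Smaller rises were those of Nop14 (0.35), Utp14a (0.34), Nol6 (0.33), Utp11 (0.28), Imp4 (0.21) and Rrp7a (0.197). The calls of Imp4 and Rrp7a were lost under each of 4 other scalings (quantile, equal upper quartiles, without immunoglobulin and globin genes, library median) and that of Utp11 under the last of these. Nol7 (0.12), Utp3 (0.09), Imp3 (0.08), Utp23 (0.04) and Rrp36 (−0.05) were not called. Without replicate 1 labelled allogeneic Nol7 was called higher (0.18), and without replicate 2 labelled syngeneic Imp3 was called higher (0.16) and Rrp36 lower (−0.16). Imp3 and Imp4 join the U3 RNA in 1 complex, and Imp3 was at 37.6, 38.5 and 41.1 against 34.8, 41.3 and 34.6 FPKM.

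Of the 14 large subunit assembly genes 12 were called higher, 1 lower and 1 (Nol8) not called (median 0.55), against the same shares over all genes. Nop16, an assembly factor known as a Myc target, was at 25.1, 31.8 and 28.2 FPKM in the libraries labelled allogeneic and at 14.3, 13.1 and 11.9 FPKM in those labelled syngeneic. The groups were well apart, although the 3 libraries labelled allogeneic were spread more widely than for most members (1.05, SE 0.098, limma adjusted p = 9.21e-05). Rrp15 was higher by 0.86. Pes1, Bop1 and Wdr12 form the PeBoW complex, which is needed to make the large subunit RNAs. Pes1 was at 39.5, 42.5 and 41.98 against 27.0, 28.1 and 24.3 FPKM (0.63, limma adjusted p = 0.000102). Bop1 was at 34.4, 32.7 and 34.1 against 23.3, 24.3 and 25.1 FPKM (0.46, limma adjusted p = 7.35e-05). Wdr12 was at 6.37, 6.24 and 5.93 against 3.15, 3.21 and 3.59 FPKM (0.74, limma adjusted p = 6.81e-05). All 3 genes of the complex were therefore higher without overlap, as were 43.4% of all genes. Wdr12 was the lowest of them in FPKM in every library, over a merged exon length of 11955 bases against 3024 for Pes1 and 2957 for Bop1. Ebna1bp2, an early assembly factor, was at 28.2, 28.0 and 26.3 against 19.4, 17.4 and 17.5 FPKM (0.58, limma adjusted p = 0.000102). Nop2, an rRNA cytosine methyltransferase, was higher by 0.72 and Rrp8, an rRNA adenine methyltransferase, by 0.53. Rrp1b (0.57) exceeded its paralogue Rrp1 (0.11), whose call was lost in 5 of the 6 fits that left out 1 library and whose direction turned to −0.02 when libraries were centred on their medians and to −0.001 when scaled without immunoglobulin, globin and receptor segment genes. Nol12 (0.42) and Nol9 (0.24), an RNA kinase of the same pathway, were also higher, the latter with a call lost under the same 2 scalings.

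Nop53 went the other way. It binds the unfinished large subunit and brings the exosome to it, and it also keeps the ribosomal protein Rpl11 in the nucleolus, which restrains p53. It was at 48.1, 47.4 and 51.1 FPKM in the libraries labelled allogeneic and at 72.6, 69.5 and 76.4 FPKM in those labelled syngeneic. The groups did not overlap (−0.57, SE 0.047, limma adjusted p = 5.77e-05), and the fold change stayed between −0.69 and −0.57 under the 4 scalings other than that to the CD3 chains, where it turned to 0.51. The ratio of Nop53 to Nop2, which dividing a library by a single factor does not change and which was chosen after the values were seen, was 1.27 to 1.36 in the libraries labelled allogeneic, against 2.99 to 3.48 in those labelled syngeneic. Nop53 is 1 of 5 members whose gene body holds annotated snoRNA genes. The others are Nop56 with 5, Nop58 with 4, Ncl with 3 and Dkc1 with 1, and all 4 of these were called higher, as were 40.7% of all genes.

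Assembly factors outside the members were mostly higher as well. Of 39 small subunit factors 26 were called higher and 4 lower (median 0.41), against 40.7% higher and 26.6% lower over all genes. The number lower was 7 when centred on the library median, where 35.2% of all genes were lower and 32.4% higher. It was 1 to 3 with 1 library left out, 1 being without replicate 1 labelled syngeneic. The list was led by Lyar (1.03), a nucleolar regulator of growing cells, and Snu13 (0.90), while Ddx52 (−0.28) and Riok1 (−0.17) were lower. Of 52 large subunit factors 36 were called higher and 1 lower (median 0.33). Centred on the library median 30 were higher and 8 lower, against 32.4% and 35.2% of all genes. Nifk, a partner of the Ki-67 protein, was at 0.92 and Rrs1, which loads the 5S particle, at 0.87. Rexo4 was at −0.20, a call that was lost in some fits leaving out 1 library (0 to 1 lower). Of 18 genes of the exosome and of rRNA trimming 13 were called higher and 2 lower (median 0.30), with the nuclease Dis3 at 0.71 and Eri1 at 0.49 against Zcchc7 at −0.57 and Xrn2 at −0.16. In this list 8 were higher and 3 lower when centred on the library median, against 32.4% and 35.2% of all genes. Proliferation genes differed by more than the members in median. Of these 32 genes 31 were called higher and 0 lower (median 0.94; limma at an unadjusted p under 0.05 and voom on recovered reads also gave 0 lower), with Uhrf1 at 70.02 ± 2.60 against 28.01 ± 2.41 FPKM, Bub1 at 22.3 ± 0.749 against 8.86 ± 0.393 and Mki67 at 96.9 ± 0.696 against 66.1 ± 4.07. These genes therefore moved with the members in the same libraries, and their part in the result was not tested.

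**Figure D3:**
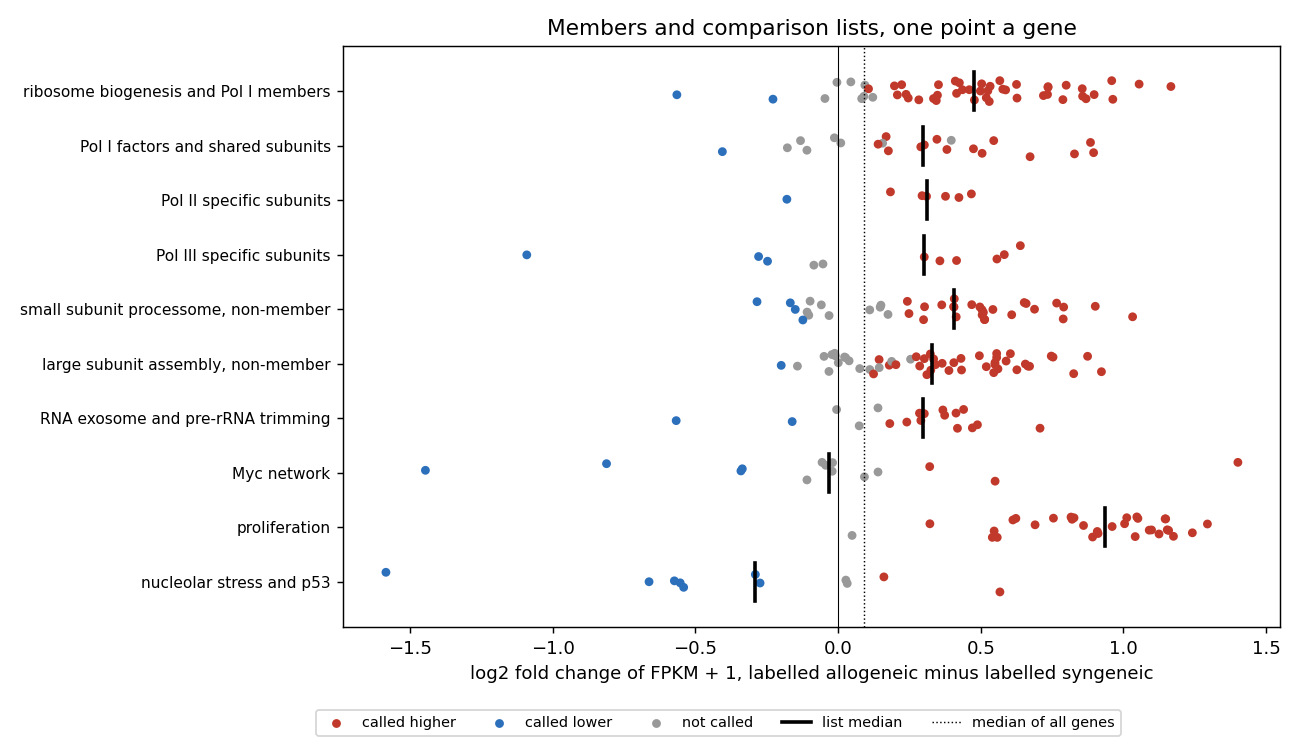
Log2 fold change of FPKM + 1 (labelled allogeneic minus labelled syngeneic) for the members and the 9 comparison lists, 1 point a gene, with the list median as a bar. The members centre on 0.48, the proliferation list on 0.94 and the Myc network near 0, against 0.09 for all genes.

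The size of the difference depended on what the libraries were scaled to. With equal upper quartiles 39 members were called higher and 2 lower (median 0.39), and centred on the library median 36 higher and 3 lower (median 0.35), against all-gene medians of 0.006 and −0.03. Over all genes 34.8% were then called higher and 32.5% lower with equal upper quartiles, and 32.4% higher and 35.2% lower with centring. Because the T cell markers differed in level, FPKM were also divided by the geometric mean over 4 CD3 chains (Cd3d, Cd3e, Cd3g, Cd247). This moved the median of all genes to 1.02 and that of the members to 1.49, with all 51 members called higher and 0 lower, against 86.2% of all genes higher and 4.13% lower. Relative to the all-gene median on that scale 47 members lay above and 4 below, namely Nop53 (0.51), Polr1d (0.82), Utp23 (0.96) and Rrp36 (1.002). Dkc1 was at 2.22, Nop16 at 2.09 and Myc at 1.58. The gap between the median of the members and that of all genes was 0.39 for FPKM as deposited, 0.38 with equal upper quartiles and 0.47 relative to the CD3 chains.

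**Figure D4:**
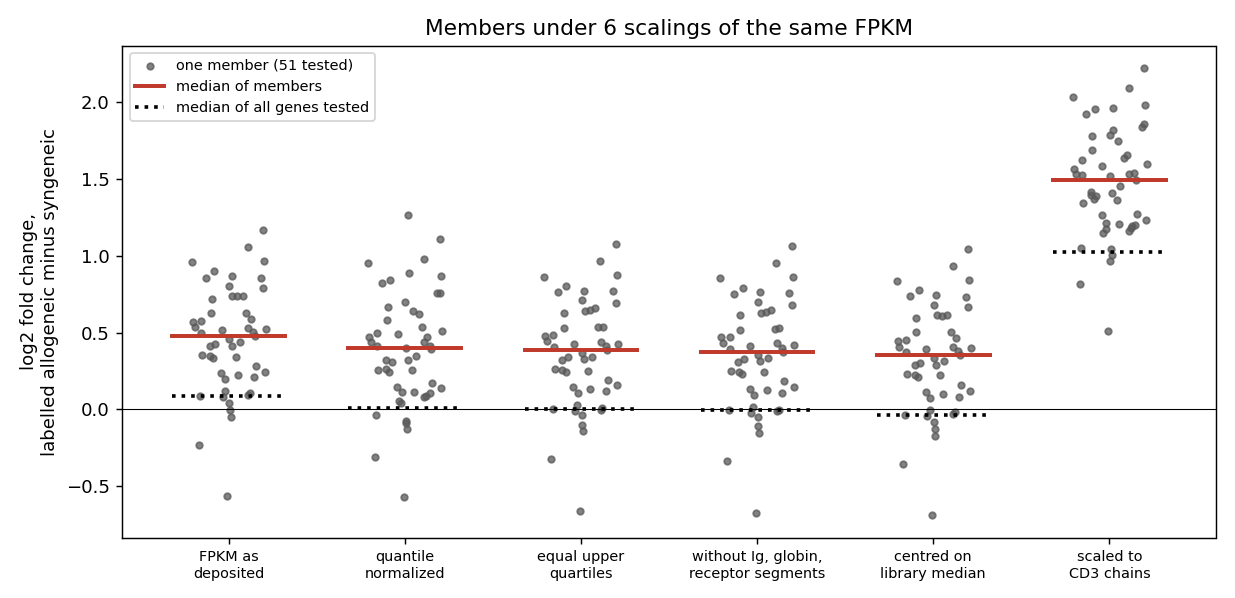
Log2 fold change of each of the 51 tested members under 6 scalings of the same FPKM, with the median of the members (red) and of all genes tested (dotted). The medians shift from 0.48 and 0.09 to 1.49 and 1.02 when libraries are scaled to the CD3 chains, and the members' median stays above that of all genes in all 6.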

How the data were processed

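RNA of spleen CD4+ T cells was measured in 6 libraries after ribosomal RNA depletion, per the labels' protocols. The authors deposited 1 FPKM value per gene and library, with limma named in the submitters' processing notes; for aligner, counter, build and annotation the entry is: not given in the sources used here. Each value times the merged exon length in GENCODE M21 (GRCm38) was a whole number of reads per library, within 0.05 reads, for 14580 of 15686 genes (92.9%), which gave the implied depths. Whether reads kept their strand is not stated, so overlapping genes on opposite strands cannot be told apart; 6 members share at least 10% of their exon sequence with another gene.

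Groups followed the characteristics labels, although titles carry A for the libraries labelled syngeneic and S for those labelled allogeneic. limma 3.58.1 in R 4.3.3 (empirical Bayes, mean-variance trend) was fitted to log2(FPKM + 1) of all genes passing the filter; lists were described by counts and medians from that fit. The step was tested on simulated data. Every member could be named, with values in each library for core proteins, members whose log2 fold change reached 1 in either direction, and the largest rise and fall of each role; up to 4 genes were named per comparison list, with others named after their values were seen. Members, lists and tests were chosen with earlier results of these data known. Alternatives were 5 scalings, 2 filters, 2 pseudocounts, no trend, voom on recovered reads, a replicate block and leaving out each library. Pseudogenes were matched with BLAST+ 2.17.0; tables and plots used Python 3.11.15, pandas 2.3.3 and matplotlib 3.10.9.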

Additional observations from a re-analysis of the deposited data

How the results depend on the processing

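Across the 18 alternative settings 36 to 51 members were called higher and 0 to 3 lower, the 0 arising when FPKM were scaled to the CD3 chains. The median log2 fold change of the members moved by more than the spread between replicates (0.082) to 0.386 with equal upper quartiles, 0.376 without immunoglobulin, globin and receptor segment genes, 0.354 centred on the library median, 0.373 with a pseudocount of 5 and 1.493 relative to the CD3 chains, and by less to 0.399 with quantile normalization and 0.51 with a pseudocount of 0.1. The direction turned for members called as deposited or under the alternative as follows. Relative to the CD3 chains Polr1c stood at 1.04, Polr1d at 0.816, Nop53 at 0.507 and Rrp36 at 1.002, by a shift of the all-gene median from 0.09 to 1.021 that Polr1d, Nop53 and Rrp36 stayed below. Rrp1 stood at −0.001 without immunoglobulin, globin and receptor segment genes and at −0.017 when centred on the library median. Members called in neither setting also turned, with Imp3 at −0.041, Nol7 at −0.002, Nol8 at −0.033, Utp3 at −0.029 and Utp23 at −0.079 when centred. For Rrp1 the cause was not tested.

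Same-numbered libraries did not deviate together (correlations of −0.031, 0.016 and −0.054). This gave no sign of a pairing by number, but with 3 libraries a group it cannot exclude one. With the replicate number as a block 8673 of 13235 genes were called, against 8914, and the same 44 members. Leaving out 1 library at a time gave 41 to 42 members higher, 2 to 3 lower, a median of 0.467 to 0.49 and 8259 to 8506 genes called. The voom fit covered 48 of the 51 members and the filter at 5 FPKM 50. Depth limits Utp14b most, with 57 reads in its shallowest library.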

Other observations

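Genes of the p53 response and of nucleolar stress were mostly lower in the libraries labelled allogeneic. Of 11 measured 7 were called lower and 2 higher (median −0.29), against backgrounds of 26.6% and 40.7% of all genes. Bbc3, a death inducer, was at 14.7 ± 0.956 against 46.1 ± 1.73 FPKM (log2 fold change −1.58), and Phlda3, which restrains Akt, was lower by 0.66 on the log2 scale. Trp53 itself was at 48.7 ± 2.41 against 32.5 ± 0.256 FPKM (0.57) and Cdkn1a, a cell cycle inhibitor, at 47.8 ± 2.29 against 42.7 ± 1.71 (0.16). Rpl5 (0.03) and Rpl11 (0.03), the ribosomal proteins that can bind Mdm2, were not called. Scaled to the CD3 chains 9 of the 11 were called higher and 1 lower with a median of 0.776, against 86.2% of all genes called higher and an all-gene median of 1.02, so the list stayed below the median of all genes.

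Ribosomal protein genes, the products that the assembly factors handle, showed no common direction. Of 81 tested, a list picked by symbol alone after the values were seen, 23 were called higher, 19 lower and 39 not called. The median was 0.005, with log2 fold changes from −5.55 to 1.39, against 40.7% of all genes called higher and 26.6% lower. Many of them have near-identical pseudogenes, so their single values are uncertain.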
